A study of Mus musculus with 8 samples.

Results

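Connexins, pannexins and their scaffold proteins were followed in 7 genes: the connexin genes Gja1, Gja4, Gjb1, Gjb2 and Gjc1, the pannexin gene Panx1, and Tjp1, which encodes the scaffold ZO-1. The genes were taken by symbol, and every probe set with 1 of these symbols as its only gene was used, which gave 14 of 45037 probe sets and 7 of 18193 genes. The set was chosen from the same comparison that is described here, with the values of Gja1 in view. The members' values are therefore a description with no test.

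RNA was measured on 8 Affymetrix mouse arrays. There were 4 arrays of L-GMPs, cells of a leukaemia with the genotype label HoxA9+Meis1 AML, and 4 arrays of GMPs with the genotype label Normal. Both groups are bone marrow cells of the GMP fraction, sorted by flow cytometry. GMP commonly stands for granulocyte-macrophage progenitor, the bone marrow cell that gives rise to neutrophils and monocytes. Strain, age, the vector behind the leukaemia and the number of animals are not given in the sources used here. Since the labels do not tie arrays to separate animals, the p-values reflect the spread among these samples alone, and that spread may be technical. Values are log2 RMA intensities, and the number of arrays limits their precision.

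Connexins join into channels that dock between neighbouring cells and pass ions and small metabolites directly from one cytoplasm to the next. Their short-lived proteins are phosphorylated, ubiquitinated and internalised, and scaffolds such as ZO-1 hold them at the membrane. Pannexins have a similar fold but mostly form single-membrane channels that release ATP. In bone marrow, connexin 43 is best known from stromal cells, osteoblasts and blood stem cells.

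Gja1 and Panx1 were the members with a level above the array median in GMPs, and their promoter sequence is shown for that reason. The stretches are the 250 bases before the transcription start in RefSeq (GRCm38.p6), chr10:56377050-56377299 on the + strand for Gja1 and chr9:15045479-15045728 on the - strand for Panx1, written 5′ to 3′. Capitals mark the AP-1 motif.
Gja1: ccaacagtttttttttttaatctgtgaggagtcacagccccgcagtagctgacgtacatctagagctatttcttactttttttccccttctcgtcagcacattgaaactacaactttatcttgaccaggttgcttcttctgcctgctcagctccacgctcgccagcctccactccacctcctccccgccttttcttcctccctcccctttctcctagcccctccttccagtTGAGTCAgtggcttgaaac
Panx1: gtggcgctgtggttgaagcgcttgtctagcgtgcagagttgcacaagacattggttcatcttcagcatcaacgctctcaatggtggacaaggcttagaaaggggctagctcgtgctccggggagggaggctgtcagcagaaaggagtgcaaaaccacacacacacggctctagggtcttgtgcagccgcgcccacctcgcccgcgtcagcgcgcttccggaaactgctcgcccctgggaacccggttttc

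The AP-1 motif, TGAGTCA or on the other strand TGACTCA, occurred once in the Gja1 stretch, starting 19 bases before the start, and in 4.46% of 32851 RefSeq promoters of the same length. No other member with a promoter sequence (6 of 7, not Gjc1) held it. The GC box, GGGCGG or on the other strand CCGCCC, found in 32.7% of all promoters, was present before Gja4, Gjb2, Tjp1 and 1 of the 4 starts of Gjb1, and its letters did not occur in the stretches of Gja1 and Panx1. The MEIS core, TGACAG or on the other strand CTGTCA, found in 15.9% of promoters, occurred once, 121 bases before the start of Panx1, on the opposite strand. The HOX-PBX motif, TGATTTAT or on the other strand ATAAATCA, found in 0.837%, occurred in no member. The motifs do not overlap in these stretches, and a match is a description of the letters only.

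Gja1, which encodes connexin 43, was low on every L-GMP array and high on every GMP array in 5 of its 6 probe sets. In the brightest, 1437992_x_at, the L-GMP arrays A to D read 2.48, 2.62, 2.31 and 2.45. The GMP arrays A to D read 8.34, 9.08, 8.57 and 8.77. The highest L-GMP array thus lay far under the lowest GMP array. The L-GMP mean was 2.46 ± 0.13 and the GMP mean 8.69 ± 0.31 (SD, n = 4), a difference of -6.23 on the log2 scale (SE 0.15, 74.8-fold). The L-GMP values lay between the 1.60 and 5.74 percentile of their own arrays, and the GMP values between the 83.8 and 89.0 percentile.

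A second probe set, 1415800_at, gave 2.91, 2.28, 2.52 and 3.11 on L-GMP arrays A to D. Its GMP arrays A to D were at 7.88, 8.89, 8.23 and 8.42, so these groups did not overlap either, with a difference of -5.65 (SE 0.23). In the probe sets 1438650_x_at, 1438945_x_at and 1438973_x_at the differences were -5.74 (SE 0.14), -5.50 (SE 0.14) and -4.05 (SE 0.20). Across the 5 probe sets the L-GMP arrays spanned 1.91 to 3.47 and the GMP arrays 6.71 to 9.08. A name ending in _x_at marks a probe set with probes that may also bind other transcripts, and 4 of these 5 are of that kind.

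The sizes of these differences depend on the floor of the arrays, since all 4 L-GMP arrays lay under their lower quartile (3.65 to 3.75) in all 5 probe sets. With every value raised to its array's lower quartile, the difference was -5.00 (32-fold) in the brightest probe set and -4.66 to -3.50 in the other 4. The mean of all 6 probe sets differed by -4.59. Among the GMP arrays replicate B was highest in all 5 probe sets. Replicate A was lowest in 3 of them and replicate C in the other 2.

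The sixth Gja1 probe set, 1415801_at, behaved differently. It is annotated to the same sequence record as 1415800_at, yet its L-GMP arrays A to D read 4.56, 4.56, 4.75 and 4.79 and its GMP arrays 5.16, 5.16, 5.11 and 4.87. Both groups lay under the array medians (5.24 to 5.49), and the difference was -0.41 (SE 0.11). The groups did not overlap as deposited, but did after centring each array on its median, where the difference was -0.27, and after quantile normalization. The sources used here do not say which stretch of the transcript either probe set reads.

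The other 4 connexin genes were dim in both groups, and their values overlapped. Gja4, which encodes connexin 37 of vascular endothelium, read 4.95, 4.87, 4.87 and 4.74 on L-GMP arrays A to D and 4.84, 4.95, 4.61 and 4.89 on GMP arrays A to D. The difference of 0.03 (SE 0.11) was smaller than the SD within either group. Gjb1, for connexin 32 of liver and myelin, had differences of 0.16 (SE 0.15) and 0.17 (SE 0.12) in its 2 probe sets, with all arrays between 2.57 and 4.15. Both probe sets of Gjb1 overlapped between the groups.

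Gjb2, for connexin 26 of the inner ear and skin, read 3.06, 2.84, 3.12 and 3.02 on L-GMP arrays A to D and 3.73, 2.78, 2.76 and 2.78 on GMP arrays A to D. GMP replicate A stood above the other GMP arrays, and the group means were the same, 3.01 ± 0.12 and 3.01 ± 0.48 (SD, n = 4). Gjc1, for connexin 45 of the cardiac conduction system, had probe sets with opposite signs, 0.23 (SE 0.11) and -0.10 (SE 0.15). After median centring the first of these, 1449094_at, differed by 0.37 and its groups no longer overlapped. Gjb2, both Gjc1 probe sets and 1 Gjb1 probe set lay under the lower quartile on all 8 arrays, so their levels are uncertain.

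Panx1, the ATP-releasing channel pannexin, was the only member above the array median on all arrays of both groups. L-GMP arrays A to D read 8.11, 8.16, 8.30 and 8.30, and GMP arrays A to D read 8.46, 8.74, 8.59 and 8.71. Every L-GMP array was lower than every GMP array, by a mean difference of -0.41 (SE 0.11, 1.33-fold). After median centring the difference was -0.27, and the groups still did not overlap. On the deposited scale Panx1 lay between the 81.7 and 86.6 percentile of the arrays.

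Tjp1, the scaffold that binds the tail of connexin 43 and links tight junction proteins to actin, read 3.09, 3.20, 3.07 and 3.15 on L-GMP arrays A to D. GMP arrays A to D read 3.65, 3.54, 3.98 and 4.11. The groups did not overlap, with a difference of -0.69 (SE 0.14), but all 4 L-GMP arrays and 2 GMP arrays lay under their lower quartile. With values raised to that quartile the difference was -0.20.

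Of the 14 member probe sets, 8 were lower in L-GMPs with no overlap between the groups (6 of Gja1, 1 each of Panx1 and Tjp1), beside 9.76% of all 45037 probe sets, and 0 were higher, beside 7.38%. The median member difference was -0.41, beside 0.00 over all probe sets. These counts follow from how the members were chosen. After median centring 7 were lower and 1 higher, beside 5.76% and 16.3% of all probe sets. After quantile normalization the counts were 7 and 0, beside 8.7% and 9.81%.

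**Figure D1:**
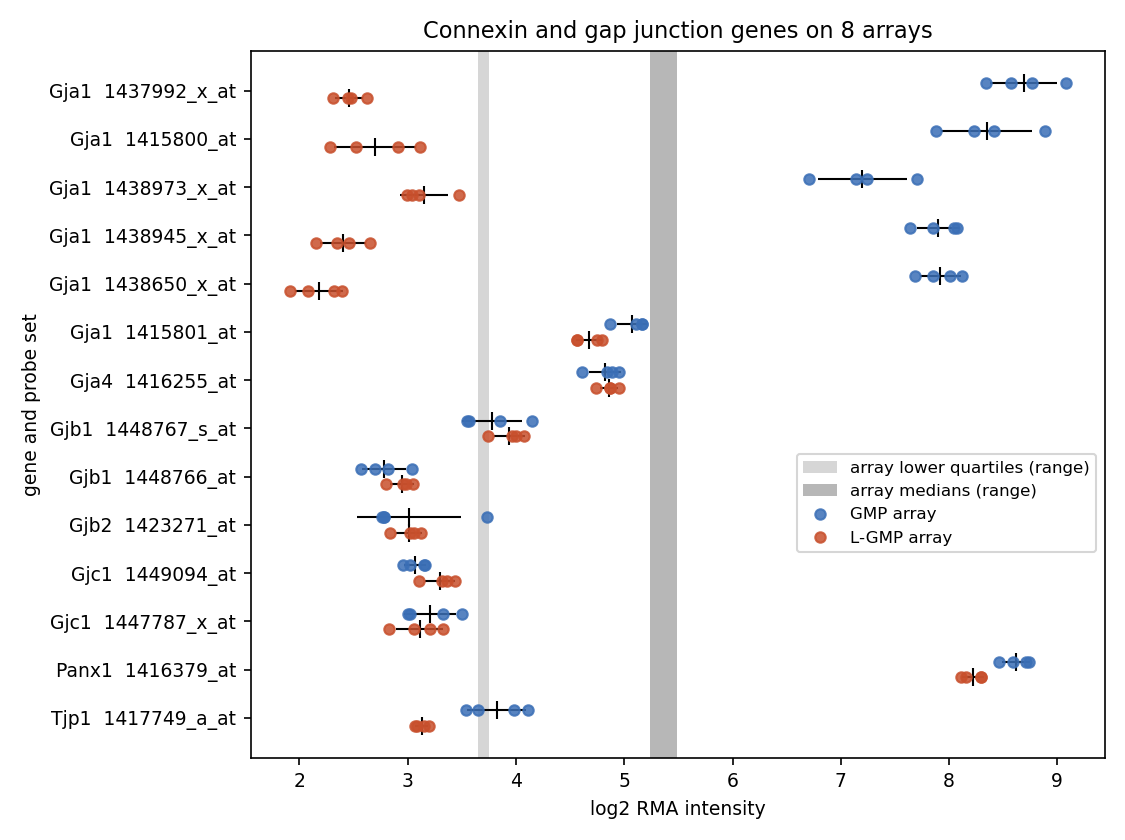
Log2 RMA intensity (x axis) of each member probe set (y axis) on the 4 GMP and 4 L-GMP arrays, with black marks for the group mean and SD and grey bands for the range of the array lower quartiles and medians. In 5 Gja1 probe sets the L-GMP arrays lie at 1.91 to 3.47 and the GMP arrays at 6.71 to 9.08, while the other connexins are dim in both groups.

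For the related genes, limma's moderated test over all 18193 genes gave the calls, with Benjamini-Hochberg adjustment at 0.05. It called 4.78% of all genes higher and 7.27% lower in L-GMPs, so that 39.7% of the called genes were higher, against 70.1% after median centring and 49.5% after quantile normalization. Centring moved the median difference of all genes from 0.01 to 0.15, so small differences hold only relative to that shift. The 3' minus 5' difference of the Gapdh control probe sets, a sign of RNA quality, was 2.74 in GMP replicate D and 1.24 to 1.76 on the other 7 arrays. The genes of the leukaemia's label did not check it fully. Hoxa9 differed by 4.82 in 1 probe set and by -6.66 in the other, and all 3 Meis1 probe sets were lower in L-GMPs (-3.05 to -1.47). Of 12 measured GMP and primary granule markers, 0 lay under the lower quartile on all arrays. Of these markers 5 were lower and 0 higher in L-GMPs, with summed intensities of 30526 to 33495 on L-GMP arrays against 42855 to 46255 on GMP arrays. The granule protease genes Elane and Prtn3 fell by 1.75 and 0.84, and the receptor genes Csf3r and Kit fell by 1.16 and 0.96. Mpo, myeloperoxidase, was the other, at 13.24 ± 0.09 in L-GMPs and 13.63 ± 0.04 in GMPs (SD, n = 4; difference -0.39, limma adjusted p = 0.0195). The labels name a labelling kit for whole transcripts that yields sense-strand targets, whereas probe sets of this array type lie near the 3' end of transcripts. Which targets were hybridised is not settled here, and its bearing on the discordant Gja1 and Hoxa9 probe sets and on the Gapdh values was not tested.

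None of the 11 other measured connexin and pannexin genes passed the test in either direction, beside 4.78% and 7.27% of all genes. In limma, 2 of the 11 had an unadjusted p under 0.05, Gja3 and Gjd4, the latter chosen after its values were seen. Their differences ran from -0.23 to 0.31, with a median of 0.08. Gja3, a lens connexin with the largest of them, was at 4.84 ± 0.09 in L-GMPs and 4.53 ± 0.24 in GMPs (SD, n = 4; difference 0.31, SE 0.13, limma adjusted p = 0.149), and its groups overlapped. Gjd4 (5.90 to 6.06 in L-GMPs, 5.51 to 5.87 in GMPs) and Panx2 (3.82 to 4.34 and 3.53 to 3.81) were higher with no overlap. Over all probe sets 7.38% were so. Panx2 was also chosen after its values were seen. After median centring Gja3 and Gjd4 passed as higher (0.45 and 0.44, limma adjusted p = 0.0385 and 0.0337), and after quantile normalization only Gjd4 did (0.45, limma adjusted p = 0.0265). Of all 18193 genes, 3084 were called after median centring, 70.1% of these higher. After quantile normalization 2531 were called, 49.5% of these higher.

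Among 31 measured genes for the assembly, phosphorylation and turnover of connexin 43, 4 were higher and 4 lower in L-GMPs. Over all genes 4.78% were called higher and 7.27% lower. The median difference of the list was 0.05. The list was written from the known biology of connexin 43, and the change of Nedd4 was known when it was written. Nedd4, a ubiquitin ligase that targets connexin 43 for internalisation, read 5.96, 7.60, 5.18 and 4.90 on L-GMP arrays A to D. GMP arrays A to D read 11.37, 10.81, 10.87 and 10.94, a difference of -5.09 (SE 0.48, limma adjusted p = 5.99e-05). The L-GMP arrays of Nedd4 were all lower than the GMP arrays but spread widely.

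Cdh1, the adhesion protein E-cadherin, read 3.80, 3.80, 3.41 and 3.45 on L-GMP arrays A to D and 6.10, 6.66, 5.72 and 5.96 on GMP arrays A to D. It fell by 2.50 on the log2 scale (SE 0.19, limma adjusted p = 1.31e-05), with no overlap. Prkca, protein kinase C alpha, which phosphorylates the connexin 43 tail, fell from 6.53 ± 0.20 to 4.72 ± 0.41 (SD, n = 4; difference -1.80, SE 0.19, limma adjusted p = 0.000149). Cav1, the caveolar protein caveolin, rose from 4.49 ± 0.14 to 5.95 ± 0.81 (SD, n = 4; difference 1.46, SE 0.32, limma adjusted p = 0.0148), a call lost without GMP replicate C (0.0511; 0.0042 to 0.325 over all alternatives).

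The remaining calls of that list were chosen after their values were seen. Vcl, the actin linker vinculin, rose by 1.16, the kinase genes Prkcd and Mapk7 rose by 0.59 and 0.52, and the ubiquitin ligase gene Wwp1 fell by 0.45. Wwp1 lost its call without L-GMP replicate A, B or C or GMP replicate B, C or D (limma adjusted p 0.0519 to 0.079) and after median centring (0.068; 0.0048 to 1 over all alternatives). Some genes that did not pass were also chosen after their values were seen. The junction partners Ctnnb1 and Cdh2 had differences of -0.13 and 0.15, with overlapping groups. Ctnnd1 and Ctnna1 differed more, by -0.47 and 0.32 (limma adjusted p = 0.0739 and 0.0854), also with overlap. Eps15 differed by -0.30 (limma adjusted p = 0.0743), with no overlap.

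Among 14 measured genes for pannexin channels and extracellular ATP, 5 were lower and 1 higher in L-GMPs. Over all genes 7.27% were called lower and 4.78% higher. The median difference of the list was -0.22. P2ry14, a receptor for UDP-sugars, read 3.22, 3.01, 2.75 and 3.54 on L-GMP arrays A to D and 5.77, 6.27, 5.77 and 5.93 on GMP arrays A to D. It fell by 2.81 on the log2 scale (SE 0.18, limma adjusted p = 2.7e-06), with all 4 L-GMP values under the lower quartile of their arrays. P2rx7, the ATP-gated channel that acts with pannexin, fell from 7.01 ± 0.14 to 5.68 ± 0.54 (SD, n = 4; difference -1.33, SE 0.23, limma adjusted p = 0.00375). L-GMP replicate B, at 4.88, was the lowest P2rx7 array.

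P2ry13, an ADP receptor, fell by 0.91 (SE 0.16, limma adjusted p = 0.00505). Entpd1, the surface enzyme that breaks down ATP, fell by 0.83 (SE 0.11, limma adjusted p = 0.000735), or by 0.41 when its probe sets were averaged (limma adjusted p = 0.0125). P2rx4, another ATP-gated channel, fell by 0.81 (by 0.53 when its probe sets were averaged), and Pycard, an inflammasome adaptor, rose by 0.56, both chosen after their values were seen. Pycard was no longer called when any 1 array other than L-GMP replicate D was left out (limma adjusted p 0.0578 to 0.108; 0.0101 to 1 over all alternatives).

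Of 24 measured tight junction partners of ZO-1, 1 was higher and 0 lower in L-GMPs. This is near the 4.78% of all genes called higher, and 7.27% were called lower. The median difference of the list was 0.01. Cgnl1, the junction scaffold paracingulin, read 8.51, 8.75, 9.04 and 10.06 on L-GMP arrays A to D and 6.52, 6.27, 6.58 and 6.54 on GMP arrays A to D. It rose by 2.61 on the log2 scale (SE 0.28, limma adjusted p = 0.000152), opposite in sign to the Tjp1 difference. When its probe sets were averaged Cgnl1 rose by 1.65 (limma adjusted p = 0.000272). The other 23 did not pass. Marveld2 and Ybx3 of these, chosen after their values were seen, had groups that did not overlap. Marveld2 read 5.35, 7.89, 5.84 and 5.49 on L-GMP arrays A to D and 4.54 to 5.09 on GMP arrays (difference 1.33, limma adjusted p = 0.0914). Ybx3 went the other way, by -0.15 (limma adjusted p = 0.309). Without L-GMP replicate B 2 of the 24 passed.

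**Figure D2:**
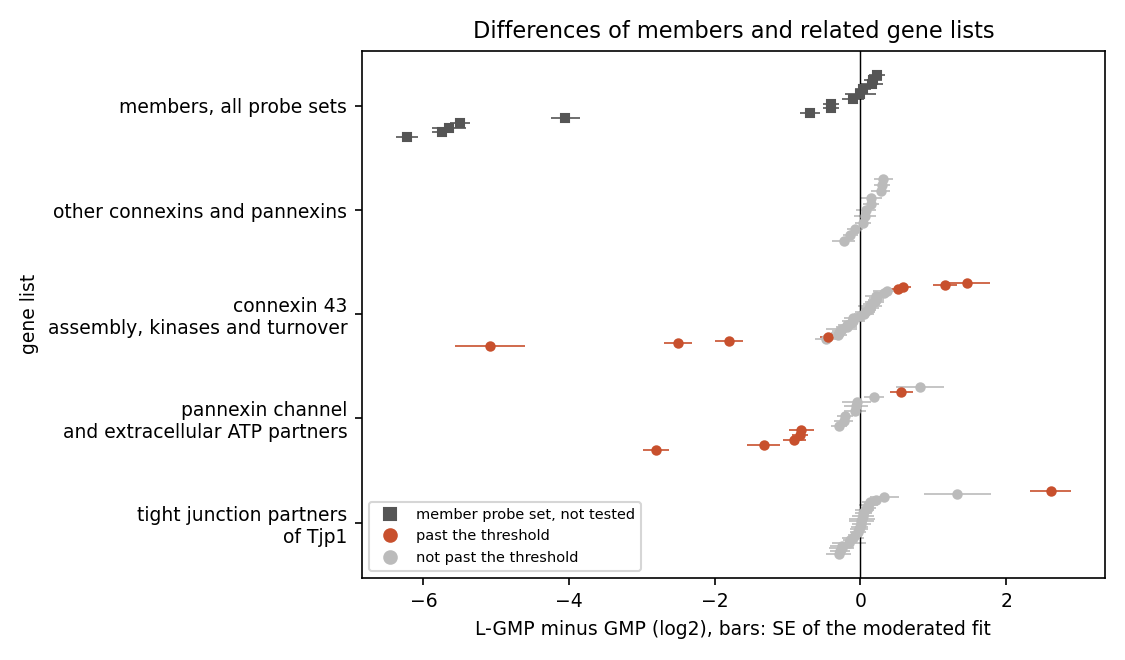
L-GMP minus GMP differences on the log2 scale (x axis) with the SE of the moderated fit, for the member probe sets (squares, not tested) and the genes of each related list (circles, red where past the threshold). The 11 other connexins and pannexins lie between -0.23 and 0.31, whereas Gja1 reaches -6.23 and the connexin 43 list spans -5.09 to 1.46.

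The genes most like Gja1 were found by the root mean square distance between log2 profiles over the 8 arrays, each centred on its own mean, among 18192 other genes. The nearest were Ppic, a cyclophilin (distance 0.22), Smo, the Hedgehog signal transducer (0.26), Prom1, the progenitor antigen CD133 (0.39), Grb10, an adaptor of growth factor receptors (0.54), and Bex1 (0.59). The other members were at distances of 2.78 (Tjp1) to 3.24 (Gjc1). The measure is carried by the difference between the groups. Within GMPs the orders differed: Gja1 and Grb10 were highest in replicate B, as was Bex1, Ppic and Prom1 in D, and Smo in A.

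**Figure D3:**
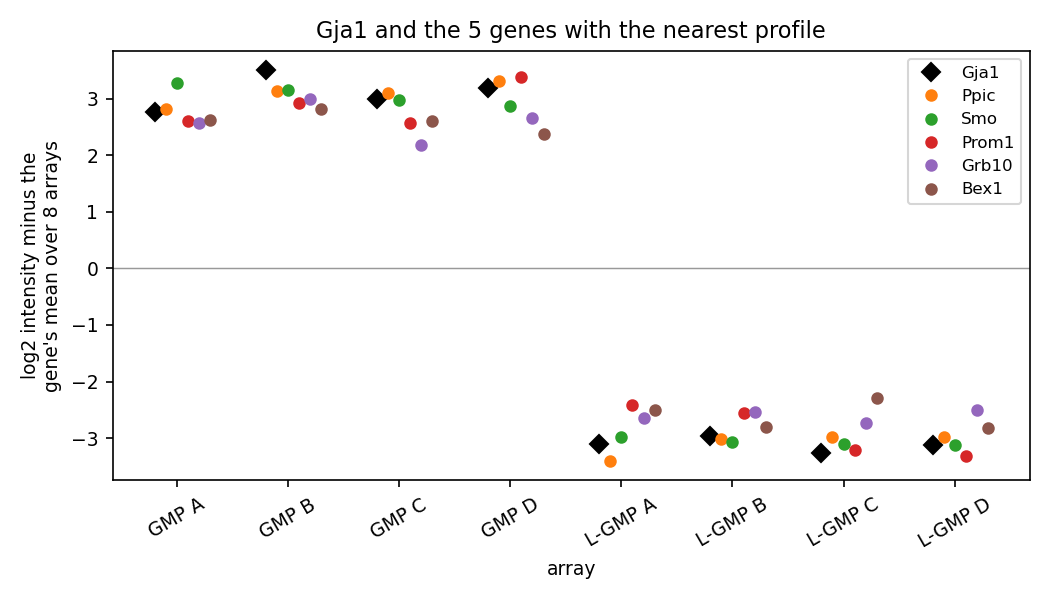
Log2 intensity minus the gene's mean over the 8 arrays (y axis) on each array (x axis) for the brightest Gja1 probe set (black diamonds) and the 5 nearest genes (coloured circles). All 6 genes are high on the 4 GMP arrays and low on the 4 L-GMP arrays, at distances of 0.22 to 0.59 from Gja1.

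Markers of other cells that the sort could hold were measured beside Gja1. Their counts stand beside 4.78% of all genes called higher and 7.27% called lower. In such bulk samples fewer cells of a type and less RNA per cell cannot be told apart. Of 14 measured markers of marrow stroma and osteoblasts, which are rich in connexin 43, 0 were called in either direction, and their summed intensity was 413 to 577 on GMP arrays and 457 to 601 on L-GMP arrays. Cxcl12, the stromal chemokine, was at 5.37 ± 0.07 in GMPs and 5.32 ± 0.05 in L-GMPs (SD, n = 4), close to the array medians. Pdgfrb, a receptor of stromal and perivascular cells, was the brightest of the list, at 7.38 ± 0.30 in GMPs and 7.72 ± 0.41 in L-GMPs (SD, n = 4), above the medians. The matrix gene Sparc and the transcription factor gene Ebf3 had means of 5.15 and 5.36 in GMPs and of 5.47 and 5.46 in L-GMPs. The GMP mean of Sparc lay under the GMP array medians (5.33 to 5.49). The means of Lepr, Col1a1, Col3a1, Pdgfra, Col1a2, Dcn, Lum, Ibsp, Alpl and Foxc1 lay under the array medians in both groups. Col1a2 read 6.17 in GMP replicate A, above that array's median, against 4.16 to 4.79 on the other GMP arrays.

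Lists with lower sums on all L-GMP arrays were those of GMP and primary granule genes (values above), stem and multipotent progenitors, megakaryocytes and eosinophils, basophils and mast cells. Over all genes 7.27% were called lower. Of 8 measured stem and multipotent progenitor markers, 6 were lower in L-GMPs, and the sums were 1033 to 1373 on GMP arrays against 132 to 173. The brightest in GMPs were Prom1 (9.28, 3.54 in L-GMPs), Angpt1 (7.51 and 4.38) and Meis1 (7.09 and 4.04). Prom1 is among the genes nearest to Gja1, and Meis1 is a gene of the leukaemia's label. Slamf1 and Fgd5 differed by 0.09 and -0.37 and were not called. Of 8 megakaryocyte and platelet markers 4 were lower, with sums of 480 to 2036 against 192 to 264. The brightest of them in GMPs was Pf4 (8.85, 3.75 in L-GMPs), which read 10.4 in GMP replicate A. Ppbp, Gp1bb, Gp9 and Gp6 differed by -1.02, -0.34, 0.01 and -0.01 and were not called. Of 10 eosinophil, basophil and mast cell markers 8 were lower, with sums of 4536 to 11079 against 665 to 1560.

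Among 9 endothelial markers 3 were lower and 1 higher, with sums of 436 to 469 against 457 to 572. Of 8 macrophage markers 3 were higher and 1 lower, with sums of 387 to 468 against 1031 to 1304. The higher ones were Cd68 (6.84 in GMPs, 9.31 in L-GMPs), Cd163 (6.68 and 8.22) and Adgre1 (4.87 and 6.42). Vcam1 fell by 1.66. C1qa, C1qb, C1qc and Mrc1 were not called, with group means of 2.95 to 4.15. On GMP arrays A to D the brightest Gja1 probe set read 8.34, 9.08, 8.57 and 8.77. The eosinophil, basophil and mast cell sums of these arrays were 7047, 11079, 4536 and 4564. Their megakaryocyte sums were 2036, 480, 816 and 1093, and their stem and multipotent progenitor sums 1055, 1135, 1033 and 1373. The part of these cells in the Gja1 difference was not tested.

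**Figure D4:**
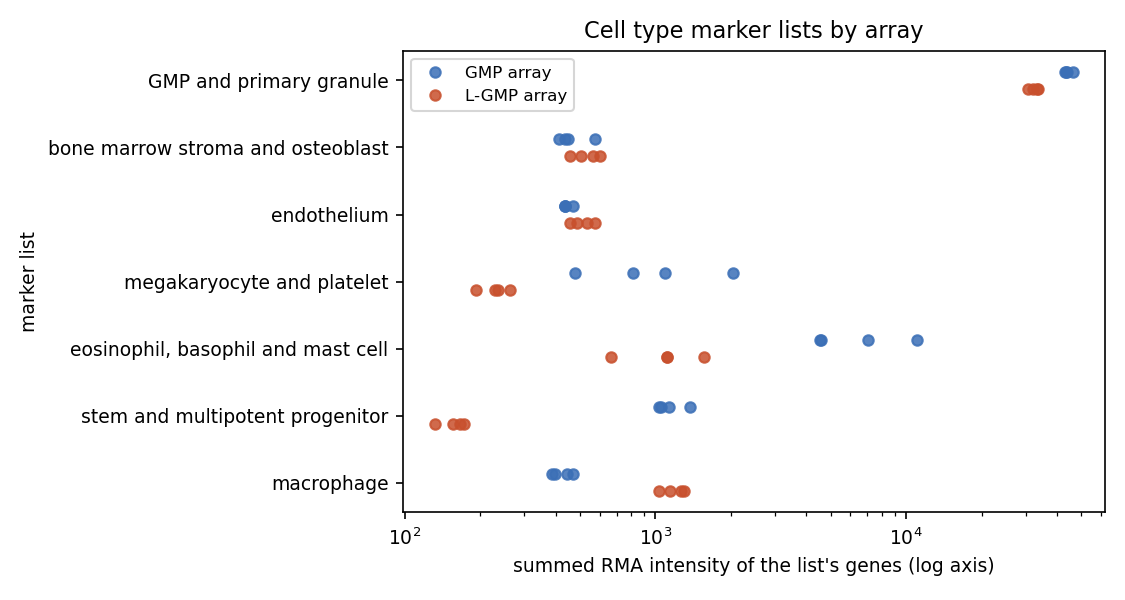
Summed RMA intensity of each marker list (x axis, log scale) on the 4 GMP and 4 L-GMP arrays, 1 point per array. The GMP and primary granule list is lower on every L-GMP array (30526 to 33495 against 42855 to 46255), as are the stem, megakaryocyte and eosinophil lists, the macrophage list is higher (1031 to 1304 against 387 to 468), and the stromal list overlaps (457 to 601 against 413 to 577).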

How the data were processed

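RNA was isolated with Trizol and a clean-up column, per the labels' protocols. The authors made the values with RMA, per the submitters' processing notes (version not given in the sources used here). What they deposited are linear intensities (3.54 to 29746.73), a scale read from the values. There were 0 unused columns. Log2 was taken, and 64 control probe sets were left out of 45101. Of the rest, 34945 had 1 gene symbol, 932 several and 9160 none, and 34741 matched the RefSeq gene table by Entrez identifier. No genome build is named with the values. A gene was represented by its probe set with the highest mean over 8 arrays, so probe sets are named by that mean. Groups were compared with limma 3.58.1 (R 4.3.3), on group alone, 2-sided, with adjustment over all genes. The SE of a member probe set is from a fit over every probe set. No detection call was used.

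The members and lists were chosen with earlier results of these data known. In each list the text names up to 4 called genes with the largest change, or the largest where none was called, and the 5 genes nearest to Gja1 (without predicted and Riken genes, olfactory receptors and antigen receptor genes). Some listed genes were not analysed here. Same-lettered arrays did not deviate together (correlations -0.07 to 0.11), so the letters were not used as pairs. Alternatives were 2 scalings, a floor, 2 filters, 2 ways to use probe sets, a trended robust prior, array weights, a replicate block, limma's treat at a fold of 1.5, and each array left out.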

Additional observations from a re-analysis of the deposited data

Results flagged for a closer look

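Single arrays stood apart from the other 3 of their group, by Dixon's criterion, in 4 of the 58 sets of 4 values checked for the members and the named genes; chance gives about 1 in 20. Gjb2 was at 3.73 in GMP replicate A against 2.76 to 2.78. Cav1 was at 4.27 in GMP replicate C against 4.55 to 4.57. P2rx7 was at 4.88 in L-GMP replicate B against 5.85 to 6.04, and Ppic at 3.65 in L-GMP replicate A against 4.03 to 4.08.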

How the results depend on the processing

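Of 157 values of member differences under the alternatives, 143 moved by less than the SD within groups. Some dim members changed sign: with the floor, Gjc1 1449094_at went from 0.23 to -0.05 and Gjb1 1448766_at from 0.17 to -0.05, and with median centring Gjc1 1447787_x_at went from -0.10 to 0.04. With an array left out, Gja4 ranged from -0.04 to 0.08 and Gjb2 from -0.09 to 0.24. All 112 values with a single array left out were among the 143, and the brightest Gja1 probe set ranged from -6.34 to -6.10 there. It moved to -5.00 with the floor and to -4.59 in the mean of the probe sets. The count of all called genes, 2193, was 389 with treat at a fold of 1.5, which asks for a larger change, and 1411 to 2388 with an array left out (1411 without GMP replicate B and 1425 without GMP replicate D). All called genes numbered 3084 after median centring, 2531 after quantile normalization and 2569 in the mean of probe sets. Without the dimmest 50% of genes, 1729 of 9097 were called. With every probe set tested, 3016 genes had at least 1 probe set past the threshold. With the replicate block the count was 1760, but the letters share only a name: L-GMP replicate D alone correlated best with its own letter. The other connexins and pannexins had 2 calls after median centring and 1 after quantile normalization, and 0 with any array left out. The connexin 43 list, with 8 calls, had 5 without the dimmest 50% of genes, 13 with every probe set tested and 3 with treat (7 to 9 with an array left out). The pannexin and ATP list, with 6 calls, had 3 without the dimmest 50% of genes and 1 with treat (5 to 6). The tight junction list, with 1 call, had 2 after median centring, in the mean of probe sets and with every probe set tested (1 to 2). Apart from the filters, which test fewer genes, and treat, the cause was not tested. The floor of the arrays limits the size of any fall of a gene that is dim in L-GMPs.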
